A study of Mus musculus with 3 samples.

Results

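The cells described here are lung endothelial cells that carried the mRNA of Vwf, the gene of von Willebrand factor, and no mRNA of Gja5, a gap junction gene of arteries. They were chosen barcode by barcode from single-cell RNA libraries. A kept barcode had at least 1000 unique molecular identifiers (UMIs, each counting 1 captured mRNA molecule), at least 200 detected genes and under 25% of its UMIs on mitochondrial genes. The endothelial gate asked for at least 4 UMIs of Cldn5, Cdh5, Cd93 and Calcrl together, none of Pdgfrb or Col1a2, and under 5% of UMIs on Sftpc. Within it, the chosen cells had at least 2 UMIs of Vwf, none of Gja5 and fewer than 2 of Car4. The rule kept 647 cells of 6934 in the gate and of 19899 kept barcodes. They are called Vwf-positive cells below.

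The libraries came from lungs of MMTV-HER2/Neu mice on the FvB background, in which a mammary promoter drives the HER2/Neu oncogene and mammary tumours form. All 3 libraries were sorted as CD45-negative and made with Chromium 3′ version 3 chemistry, and each group holds 1 library. The late HER2-positive library came from mice older than 20 weeks with primary tumours. The early HER2-positive library came from mice of 14 to 18 weeks with no palpable tumour, and the early HER2-negative library from mice of the same age and stage. The submitters call the HER2-positive cells cancer cells and the others non-cancer lung cells, and the number of animals is not stated. With 1 library a group, stage, age, sort and animal cannot be told apart from library, so no test between libraries was made. The Vwf-positive cells numbered 55 in the late HER2-positive library, 163 in the early HER2-positive library and 429 in the early HER2-negative library.

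Von Willebrand factor is a large glycoprotein that endothelial cells store in Weibel-Palade bodies and release to catch platelets at a damaged vessel wall. In the lung it is made mainly by the larger vessels, and much less by the capillaries around the alveoli. Venous endothelium is known for the transcription factor Nr2f2 (COUP-TFII), which keeps the Notch programme of arteries off, and venules are where leukocytes leave the blood. Arterial endothelium is known for Notch ligands, ephrin-B2 and the gap junction proteins of Gja4 and Gja5.

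Total UMIs per library were 54961019 in the late HER2-positive, 49248126 in the early HER2-positive and 25610135 in the early HER2-negative library. Of the kept barcodes, 0.367% to 0.494% also occurred in another library, and 0, 0 and 5 of the Vwf-positive cells of the late HER2-positive, early HER2-positive and early HER2-negative libraries did. Median UMIs per Vwf-positive cell were 5000, 3733 and 3507 in the same order. The cells they were set against, from the same gate with Vwf, Gja5 and Car4 at 0, numbered 128, 591 and 2782 and had medians of 3635.5, 3081 and 2766.5 UMIs. At least 2 UMIs of Epcam, Ptprc, Dcn, Col1a1, Acta2, Higd1b and Hopx together, genes of other lung cells, were in 19 of 55, 14 of 163 and 48 of 429 Vwf-positive cells, against 47 of 128, 162 of 591 and 502 of 2782 cells without Vwf. A second comparison was made with 126, 145 and 211 cells of the gate that had at least 1 UMI of Gja5 and fewer than 2 of Car4. Erbb2, the mouse gene of the sorted protein, stood at 26.0, 21.9 and 18.6 CPM (counts scaled to the same total in every population and library) in Vwf-positive cells, against 18.7, 22.1 and 21.1 CPM in the cells without Vwf.

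Upstream sequences are shown for 3 genes that were higher in Vwf-positive cells than in both other populations: Nr2f2, Selp (P-selectin, a Weibel-Palade protein) and Vegfc (a growth factor of lymphatic vessels). Each is the 250 bases before the RefSeq start site on the gene's strand, 5′ to 3′, in GRCm38.p6. Capitals mark AGGTCA (a nuclear receptor half-site), TGTTTAC (a forkhead motif) or AGGAAG (an ETS motif), read on both strands, and none of the marked letters overlap.
Nr2f2, chr7:70366747-70366996, minus strand: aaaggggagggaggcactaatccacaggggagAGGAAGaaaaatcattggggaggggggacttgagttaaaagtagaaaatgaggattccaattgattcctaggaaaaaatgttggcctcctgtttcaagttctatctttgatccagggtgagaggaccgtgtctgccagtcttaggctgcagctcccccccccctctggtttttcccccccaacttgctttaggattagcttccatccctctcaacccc
Selp, chr1:164115014-164115263, plus strand: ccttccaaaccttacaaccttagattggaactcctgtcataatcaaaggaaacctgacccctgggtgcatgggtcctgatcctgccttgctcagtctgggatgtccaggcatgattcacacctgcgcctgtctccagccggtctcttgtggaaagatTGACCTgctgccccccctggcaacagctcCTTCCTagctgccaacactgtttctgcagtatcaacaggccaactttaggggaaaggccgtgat
Vegfc, chr8:54077282-54077531, plus strand: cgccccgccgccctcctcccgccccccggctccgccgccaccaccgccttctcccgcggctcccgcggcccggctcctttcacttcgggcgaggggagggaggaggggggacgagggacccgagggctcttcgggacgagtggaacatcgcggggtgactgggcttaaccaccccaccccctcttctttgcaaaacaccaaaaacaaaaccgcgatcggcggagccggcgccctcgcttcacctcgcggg
The Nr2f2 window held 1 match, the Selp window 2 and the Vegfc window 0. Of the 21 genes with the largest rises in Vwf-positive cells, over either population, 14 had such a window. AGGTCA was in the windows of 2 of these 14 genes, against 14.0% of all 32851 windows of the table. TGTTTAC was in those of 0, against 3.17%, and AGGAAG in those of 7, against 29.5%. The matches describe these letters only.

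Vwf itself chose the cells, so its values are given without a test. The median Vwf-positive cell held 9 Vwf UMIs in the late HER2-positive library, 10 in the early HER2-positive library and 7 in the early HER2-negative library, and the highest held 61, 105 and 50. At the threshold, 12, 18 and 70 cells had exactly 2 UMIs. Just inside it, cells with 2 Vwf UMIs had 0, 80.7 and 125 CPM of Slc6a2 in the same order of libraries. Just outside it, cells with 1 Vwf UMI had 0, 17.6 and 18.4 CPM. Prss23 stood at 153, 307 and 399 CPM inside and at 211, 229 and 199 CPM outside.

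Venous genes were higher in Vwf-positive cells than in the endothelial cells without Vwf, Gja5 and Car4. Of the 10 vein genes listed, 9 passed the test as higher and none as lower, with a median log2 fold change of 4.75. The list was chosen with earlier results of these data known, so this count is no independent evidence of a venous identity. The test was edgeR's quasi-likelihood test on counts summed per library and population, with the library as a term and Benjamini-Hochberg adjustment over 8514 genes. Over all of these, 617 genes (7.25%) were higher and 435 (5.11%) lower at an adjusted p under 0.05, and the median log2 fold change was -0.01. The 4 rule genes that passed, Vwf, Cdh5, Car4 and Cldn5, are inside those counts and are no result. Without the early HER2-positive library 354 genes passed in place of 1052.

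Slc6a2 encodes the noradrenaline transporter, which lung endothelium uses to clear noradrenaline from blood. It lies at chr8:92960079-93001667 (GRCm38, plus strand). It had 394 CPM (late HER2-positive), 475 CPM (early HER2-positive) and 887 CPM (early HER2-negative) in Vwf-positive cells, against 3.75, 0.514 and 1.23 CPM in the cells without Vwf. Its summed level was higher in the Vwf-positive cells of each library, though most of them in the HER2-positive libraries held no UMI of it. Its log2 fold change was 8.99 ± 0.65 (SE), with an adjusted p of 2.5e-08 in edgeR's quasi-likelihood test. With each cell thinned to 1000 UMIs, 9.09%, 23.3% and 35.7% of Vwf-positive cells held a Slc6a2 UMI, against 0%, 0% and 0.180% of cells without Vwf. In alveolar type 2 cells, an epithelial type that should lack it, the thinned shares were 0%, 0.0278% and 0%, at medians of 8781, 6972.5 and 8221.5 UMIs before thinning. The 0% of the early HER2-negative library rests on 32 type 2 cells, with an upper limit of 10.9%. The unthinned shares of Vwf-positive cells were 14.5%, 34.4% and 50.1%.

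Nr2f2 (chr7:70351944-70366735, minus strand) had 74.8, 129 and 168 CPM in Vwf-positive cells of the late HER2-positive, early HER2-positive and early HER2-negative libraries, against 22.5, 11.8 and 6.03 CPM in the cells without Vwf. It was higher in Vwf-positive cells of every library, and its log2 fold change was 4.05 ± 0.34 (SE; edgeR adjusted p = 1.4e-07). The share of cells with an Nr2f2 UMI was 20.0%, 26.4% and 32.4% in Vwf-positive cells, against 21.3% and 22.8% in the deeper alveolar type 2 cells of the HER2-positive libraries, so the share in the late HER2-positive library was not above that of the epithelium. Thinned to 1000 UMIs, the shares were 5.45%, 12.9% and 13.3% in Vwf-positive cells and 2.83%, 4.92% and 0% in type 2 cells.

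Prss23, a serine protease gene known from venous endothelium, had 628, 1221 and 1778 CPM in Vwf-positive cells, against 204, 99.8 and 129 CPM in the cells without Vwf (log2 fold change 3.25 ± 0.33, edgeR adjusted p = 1.5e-06). Amigo2, an adhesion molecule, had 78.1, 127 and 217 CPM, against 3.75, 3.60 and 7.02 CPM (4.85 ± 0.30). Vegfc had 120, 242 and 413 CPM, against 31.8, 65.8 and 67.2 CPM (2.29 ± 0.27). The summed levels of these 3 genes were higher in Vwf-positive cells of each library, while many single cells of both populations carried Prss23: in the late HER2-positive library 58.2% of Vwf-positive cells held a UMI of it, against 32.8% of cells without Vwf. Bst1, a cell surface enzyme, had 32.5, 61.3 and 89.7 CPM, against 0, 2.06 and 0.985 CPM (6.10 ± 0.47). Car8 had 97.6, 326 and 247 CPM, against 7.49, 6.69 and 0.246 CPM (6.83 ± 0.59), and its level in barcodes of 1 to 100 UMIs, which hold free RNA, was 316, 204 and 24.0 CPM. The vein gene that did not pass was Ephb4, the receptor of ephrin-B2. It had 179, 142 and 209 CPM in Vwf-positive cells, against 187, 134 and 164 CPM in the cells without Vwf (0.21 ± 0.15, edgeR adjusted p = 0.48).

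**Figure D1:**
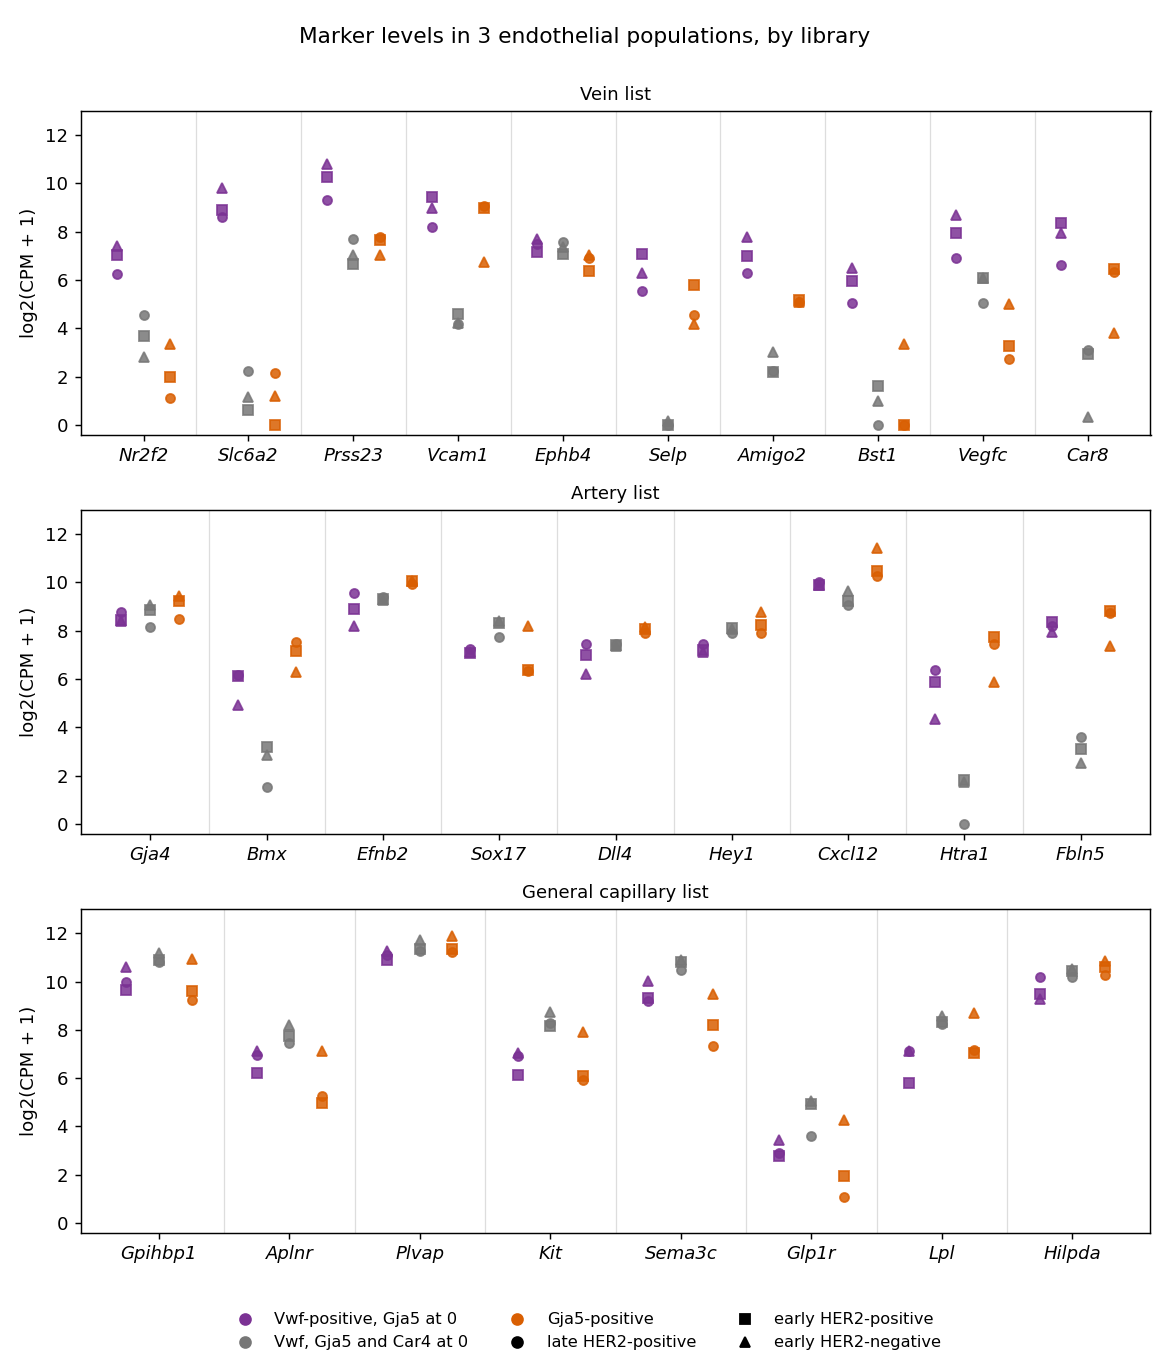
Each point is the level, as log2(CPM + 1), of a gene in the summed counts of 1 population of 1 library, with the population given by colour and the library by shape. The vein genes other than Ephb4 lie higher in Vwf-positive cells than in cells with Vwf, Gja5 and Car4 at 0, and the artery genes Bmx, Htra1 and Fbln5 lie lowest in the cells with Vwf, Gja5 and Car4 at 0.

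The artery list was mixed. Of its 9 tested genes outside the rule, 4 were higher in Vwf-positive cells than in those without Vwf and 2 were lower, with a median log2 fold change of -0.19. Fbln5, an elastic fibre gene, had 290, 324 and 248 CPM in Vwf-positive cells, against 11.2, 7.71 and 4.68 CPM in the cells without Vwf (5.44 ± 0.23, edgeR adjusted p = 3.2e-11). Bmx, a tyrosine kinase gene of arterial endothelium, had 71.6, 68.6 and 29.1 CPM, against 1.87, 8.23 and 6.28 CPM (2.69 ± 0.27). The other higher genes were Htra1 (3.78) and Cxcl12 (0.64), and the lower ones were Sox17 (-1.09) and the Notch target Hey1 (-0.81). Efnb2, the arterial ephrin, had 748, 480 and 293 CPM in Vwf-positive cells, against 672, 637 and 625 CPM (edgeR adjusted p = 0.15). Absence of Gja5 UMIs therefore did not leave cells without arterial genes, and "non-arterial", a name given to these cells for that absence, does not describe all of them.

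The general capillary genes were lower in Vwf-positive cells: 8 of 8 passed as lower, with a median log2 fold change of -1.13. Kit, the receptor of stem cell factor, had 120, 68.6 and 131 CPM in Vwf-positive cells, against 315, 288 and 425 CPM in the cells without Vwf (-1.73 ± 0.26, edgeR adjusted p = 0.00014). Lpl, lipoprotein lipase, had 140, 54.0 and 137 CPM, against 301, 318 and 376 CPM (-1.67 ± 0.27). Gpihbp1, which anchors that lipase to capillary walls, had 1012, 803 and 1546 CPM, against 1803, 1899 and 2342 CPM (-0.87 ± 0.20). Each of the 3 was lower in Vwf-positive cells of every library. Of the 7 tested aerocyte genes, which mark the capillary cells next to alveolar type 1 cells, Ednrb was higher, Emp2 and Prx were lower, and the other 4 did not pass.

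The gate could also hold lymphatic endothelial cells, so their defining genes were checked. Prox1, its master transcription factor, had no counts in Vwf-positive cells of either HER2-positive library, and 4.33 CPM in the early HER2-negative library, where 1 cell held all its counts. Mmrn1 was at 0, 0 and 6.81 CPM in the same order, likewise in 1 cell. Lyve1, a hyaluronan receptor used as a lymphatic marker, had 1766, 2177 and 2025 CPM in Vwf-positive cells, against 627, 343 and 386 CPM in the cells without Vwf (2.26 ± 0.28, edgeR adjusted p = 2e-05). It was also high in Gja5-positive cells, at 3677, 3191 and 1081 CPM. Of the whole lymphatic list, 2 of 8 measured genes outside the rule could be tested, and the other one, Flt4, was lower (-0.86). Summed counts of the lists for mesothelium, leukocytes and platelets reached at most 9.76 CPM in Vwf-positive cells of any library, and the leukocyte gene Ptprc was at 0 in all of them. Other lists were higher. The alveolar type 2 list, which includes Sftpc, summed to 1425, 1073 and 28.5 CPM in the same order of libraries. In the cells without Vwf it summed to 2955, 1128 and 29.3 CPM. The mural list reached 46.7 CPM, the fibroblast list 27.7 CPM and the airway list 16.1 CPM, each in the early HER2-positive library. The gate itself held Pdgfrb of the mural list and Col1a2 of the fibroblast list at 0, so those sums rest on the other members.

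Genes of Weibel-Palade bodies and of leukocyte adhesion were partly higher than in the cells without Vwf. Of 18 tested Weibel-Palade genes, 6 were higher in Vwf-positive cells and none lower, with a median log2 fold change of -0.00. Selp (chr1:164115264-164150026) had 45.5, 136 and 78.0 CPM in Vwf-positive cells, against 0, 0 and 0.123 CPM in the cells without Vwf. This is 233 counts against 1, a ratio of 947 (95% interval 168 to 37568, counting error only). The others were Myrip (2.46), Cd63 (1.30), Rab27a (1.24), Plat (0.73) and Angpt2 (0.62), of which Myrip and Rab27a place the granules at the cell edge. Of 16 leukocyte adhesion genes, 5 were higher and none lower: Selp, Sele, Vcam1, Jam2 and Icam1. Vcam1, which binds integrins of leukocytes, had 293, 685 and 505 CPM in Vwf-positive cells, against 16.9, 23.1 and 17.7 CPM (4.65 ± 0.43, edgeR adjusted p = 4.2e-07). Sele, the inducible E-selectin, had 91.1, 77.4 and 17.3 CPM, against 0, 1.03 and 0.123 CPM. A single cell held 82.1% of its counts in the late HER2-positive library and 85.7% in the early HER2-negative library, so its level there is that of 1 cell. Sele UMIs were in 9.09%, 7.98% and 0.699% of Vwf-positive cells, against 14.3%, 9.66% and 0.948% of Gja5-positive cells. Against the latter Sele did not pass (log2 fold change 0.22, edgeR adjusted p = 0.83). Ackr1, the chemokine receptor of venules, had too few counts to be tested. It was found in 2, 4 and 7 Vwf-positive cells of the late HER2-positive, early HER2-positive and early HER2-negative libraries and in none without Vwf, which is at least 62.3-fold higher over the summed libraries, with a floor of 3 counts.

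Of 18 tested vasoactive genes, 7 were higher and 5 lower in Vwf-positive cells, with a median log2 fold change of -0.04. Ptgs2, the inducible cyclooxygenase, had 45.5, 90.5 and 84.2 CPM in Vwf-positive cells, against 0, 0 and 0.123 CPM in the cells without Vwf, which is 212 counts against 1. Ptgs1, the constant form, had 84.6, 218 and 292 CPM, against 11.2, 28.3 and 41.0 CPM (2.86 ± 0.21, edgeR adjusted p = 2.5e-08). Ptgis, which makes prostacyclin from their product, had 45.5, 131 and 171 CPM, against 13.1, 19.03 and 22.4 CPM (2.82 ± 0.22). Pla2g4a, the phospholipase that frees arachidonic acid for these enzymes, had 29.3, 64.3 and 74.9 CPM, against 1.87, 2.57 and 0.492 CPM (5.93 ± 0.48). The 4 genes form a chain from membrane lipid to prostacyclin, and each was higher in Vwf-positive cells of all 3 libraries. In barcodes of 1 to 100 UMIs, Ptgs2 stood at 121, 44.8 and 11.1 CPM. Of 16 tested clotting and fibrinolysis genes, 6 were higher and none lower, among them Procr, the protein C receptor (3.05 ± 0.26). Nos3, endothelial nitric oxide synthase, was higher too (2.05 ± 0.25, edgeR adjusted p = 1.3e-05), and Aplnr, the apelin receptor, was the vasoactive gene with the largest called fall (-1.09).

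Among matrix genes 14 of 27 were higher and 6 lower, with a median log2 fold change of 1.10. The largest rises were those of Fbln5, Fbln2 (4.02 ± 0.38), the proteoglycan gene Bgn (3.64 ± 0.33) and the fibrillin gene Fbn1 (3.41 ± 0.35). The lower ones included the basement membrane collagens Col4a1 (-1.04) and Col4a2 (-1.44). Of 32 tested endothelial transcription factors, 10 were higher and 8 lower. Foxc1, a forkhead factor of vessel development, had 32.5, 57.0 and 65.0 CPM in Vwf-positive cells, against 5.62, 0 and 0.739 CPM in the cells without Vwf (5.93 ± 0.52, edgeR adjusted p = 2.4e-07). Prdm1 (-2.06) and Sox17 were the 2 with the largest fall.

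Outside the lists, Tmem45a (8.15 ± 0.40), Ch25h (7.85 ± 0.42), Cpe (7.04 ± 0.47), Cytl1 (7.03 ± 0.43), Myof (6.90 ± 0.39) and AU021092 (5.94 ± 0.37) were among the 15 genes with the largest rise. Ch25h makes 25-hydroxycholesterol, and Cpe trims peptide hormones. Cytl1 had 189, 478 and 350 CPM in Vwf-positive cells, against 3.75, 0.514 and 2.83 CPM in the cells without Vwf. For Ch25h, 42.9% of the counts of the late HER2-positive library came from 1 cell. The genes with the largest fall were Sec14l3 (-3.30 ± 0.48), Ager (-2.90 ± 0.24), Chchd10 (-2.43 ± 0.39), Wif1 (-2.25 ± 0.32), Cd300lg (-2.13 ± 0.24), Cyp2f2 (-2.01 ± 0.51), Nptx1 (-1.93 ± 0.28), Kit, Gprin3 (-1.70 ± 0.24) and Pard6g (-1.68 ± 0.23).

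Ager, Sec14l3, Chchd10 and Cyp2f2 are known from lung epithelium. Ager, of alveolar type 1 cells, had 35.8, 18.98 and 3.09 CPM in Vwf-positive cells, against 142, 173 and 37.3 CPM in the cells without Vwf and 944, 1251 and 351 CPM in barcodes of 1 to 100 UMIs. The summed level of the 4 type 1 genes was 257, 100.8 and 140 CPM in Vwf-positive cells, against 609, 591 and 304 CPM. With a threshold of 1 Vwf UMI in place of 2, the log2 fold change of Ager was -0.12 (edgeR adjusted p = 0.98).

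**Figure D2:**
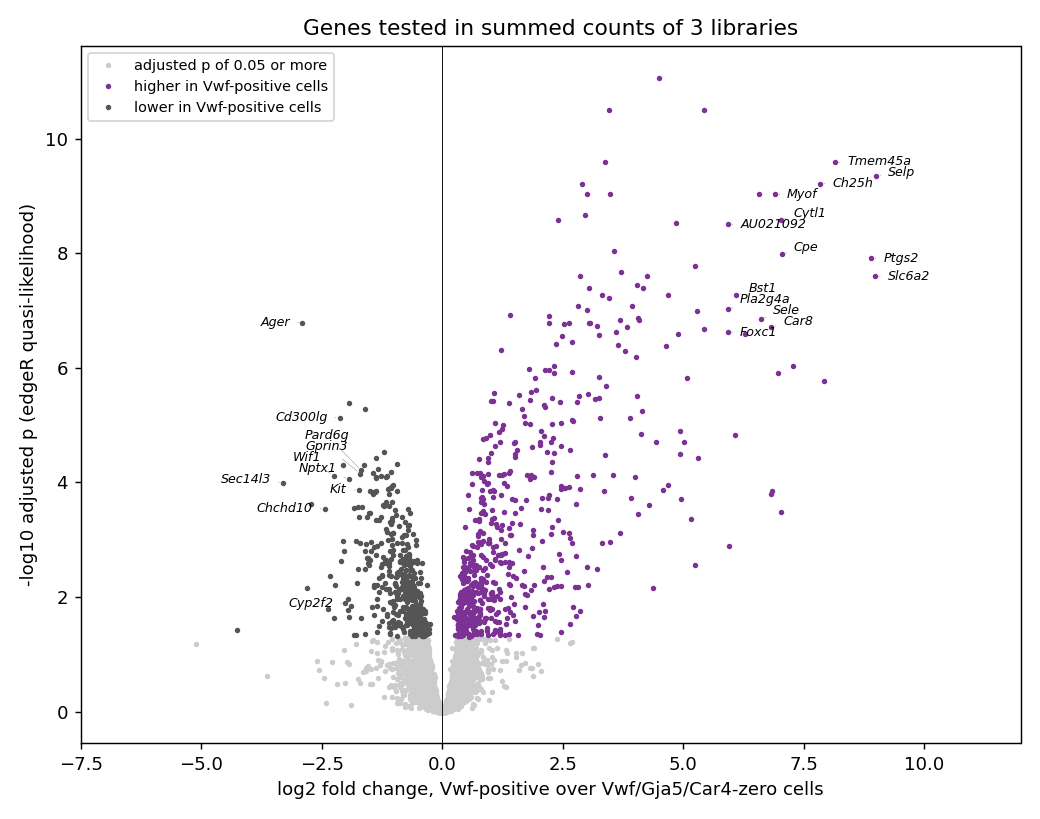
Each dot is 1 of the genes tested outside the rule, with the log2 fold change of Vwf-positive over Vwf, Gja5 and Car4-zero cells on the x axis and -log10 of edgeR's adjusted p on the y axis. The 14 genes labelled on the right, from Selp at 9.01 to Foxc1 at 5.93, rose further than any labelled gene on the left fell.

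Immediate early genes, which cells switch on within minutes of a stimulus, were higher in Vwf-positive cells: 15 of 17 passed and none was lower, with a median log2 fold change of 0.90. Egr1 had 130, 564 and 549 CPM in Vwf-positive cells of the late HER2-positive, early HER2-positive and early HER2-negative libraries, against 67.4, 96.7 and 114 CPM in the cells without Vwf (2.22 ± 0.18, edgeR adjusted p = 1.2e-07). Nr4a1 had 42.3, 137 and 298 CPM, against 16.9, 13.4 and 35.3 CPM (3.003 ± 0.24). Fosb (2.21 ± 0.19), Fos (1.83 ± 0.22) and Atf3 (1.81 ± 0.18) moved the same way. Of the transcription factor list, Klf2, which is known to be induced by shear stress, had 2095, 2103 and 3137 CPM, against 1487, 1450 and 1917 CPM (0.62 ± 0.09). Vwf-positive cells also had the higher median UMI count in every library; with cells without Vwf matched on total UMIs, the log2 fold change of Egr1 was 2.23. Of 16 genes of antigen presentation, 8 were lower and none higher, with a median log2 fold change of -0.56. Cd74 had 2365, 1335 and 2215 CPM in Vwf-positive cells, against 4067, 3021 and 3305 CPM (-0.82 ± 0.22, edgeR adjusted p = 0.018). Several H2 genes are near-identical copies, so the split of their counts between members is uncertain.

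**Figure D3:**
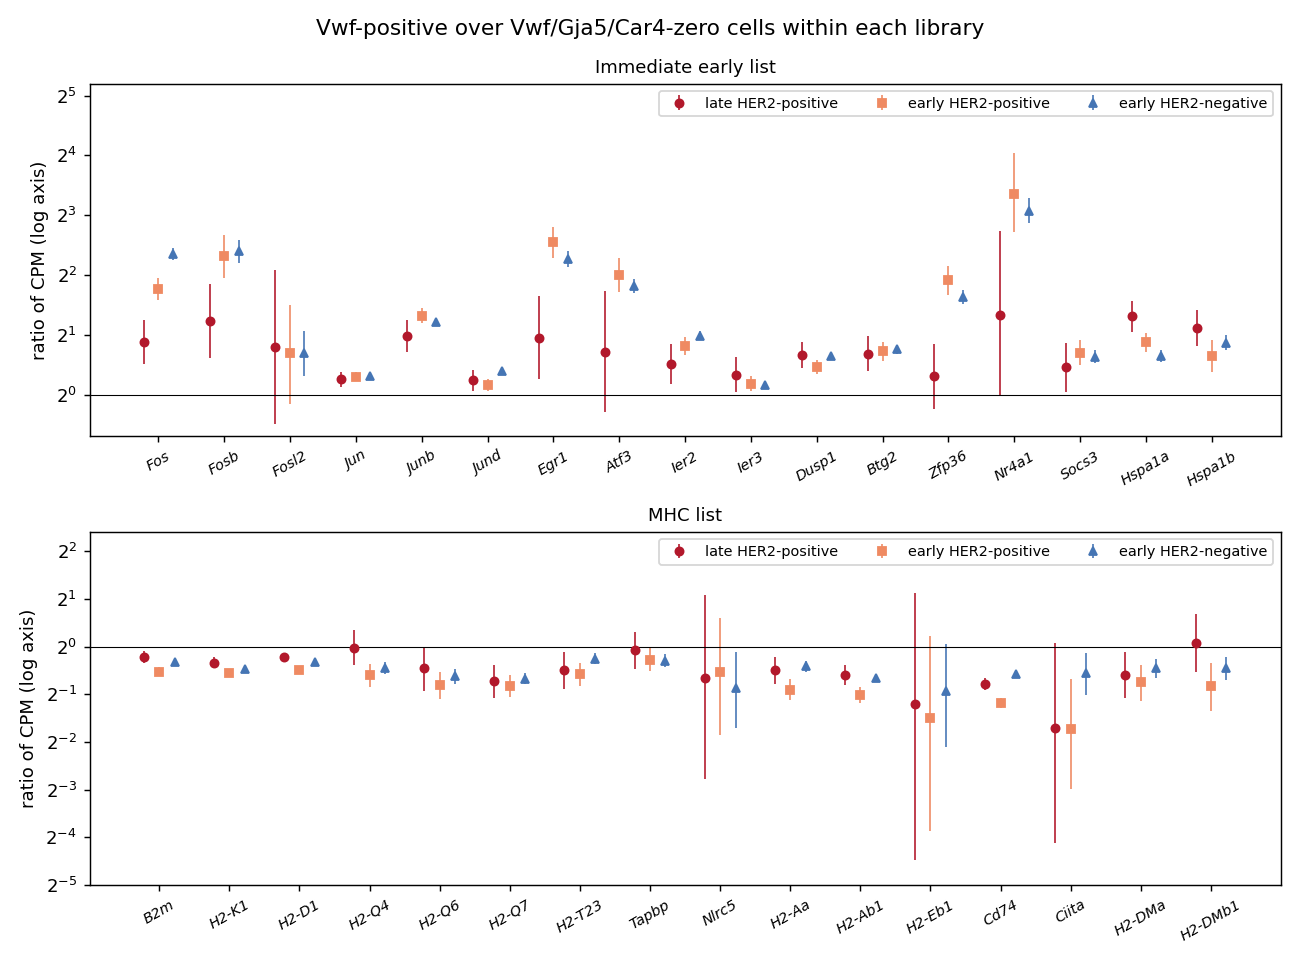
Ratios of CPM of Vwf-positive over Vwf, Gja5 and Car4-zero cells are shown within each library on a log axis, with 95% intervals of counting error. The ratios of Egr1, Atf3 and Nr4a1 are lower in the late HER2-positive library than in the early ones, and those of Cd74 and H2-K1 lie under 1 in all 3.

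Against the Gja5-positive cells, which also express Vwf, 234 genes (2.75%) were higher in Vwf-positive cells and 164 (1.93%) lower, 4.67% in all of the 8514 tested. Without the early HER2-positive library 129 genes passed in place of 398. The Gja5-positive sum of the late HER2-positive library also carried RNA of mammary genes: the 4 listed (Csn3, Csn1s1, Lalba and Wfdc18) summed to 19.5, 0 and 0.619 CPM in Vwf-positive cells, against 2958, 0 and 0 CPM in Gja5-positive cells. Csn3, a casein gene, was called lower in Vwf-positive cells (-5.99 ± 0.43), and 345 genes passed without the late HER2-positive library. Vwf stood at 2443, 3102 and 2775 CPM in Vwf-positive cells and at 3153, 2716 and 917 CPM in Gja5-positive cells. Of the 10 vein genes, 9 were higher and none lower, with a median log2 fold change of 2.46, and 6 of 9 tested artery genes were lower and none higher, with a median of -1.15. These counts use the same Vwf-positive cells as the comparison above and are not independent of it. Gja5, itself an artery gene, set these populations apart, so lower levels of other artery genes may follow from the choice of cells. Slc6a2 had 3.41, 0 and 1.31 CPM in Gja5-positive cells (8.45 ± 0.78, edgeR adjusted p = 3.3e-06), and Nr2f2 had 1.14, 2.90 and 9.14 CPM (4.94 ± 0.51, edgeR adjusted p = 1e-05). Vcam1 was the vein gene that did not pass, with 532, 506 and 106 CPM in Gja5-positive cells (0.55 ± 0.35, edgeR adjusted p = 0.55). Its level was lower in the Vwf-positive cells of the late HER2-positive library and higher in those of both early libraries.

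Other genes with the largest rise over Gja5-positive cells were Fgl2 (6.64 ± 1.09), Fabp4 (5.48 ± 1.34), Bst1 (4.31 ± 0.55), Vegfc (4.14 ± 0.40), Dnm3 (3.98 ± 0.45) and Lrg1 (3.91 ± 0.37). Lrg1, a secreted glycoprotein that acts on TGF-beta signalling, had 130, 421 and 439 CPM in Vwf-positive cells, against 2.28, 18.9 and 47.0 CPM in Gja5-positive cells. Fabp4, a fatty acid carrier, had 32.5, 692 and 144 CPM, against 0, 1.45 and 18.3 CPM, and lost its call without the early HER2-positive library (3.85, edgeR adjusted p = 0.11). Nrp2, a co-receptor of Vegfc, was higher too (3.73 ± 0.34, edgeR adjusted p = 3e-06), as was Ptgs1 (3.55 ± 0.28).

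The genes with the largest fall were Sfrp1 (-2.55 ± 0.40), Rbp7 (-2.07 ± 0.52), Fblim1 (-1.93 ± 0.25), Sulf1 (-1.87 ± 0.18), Tacc2 (-1.69 ± 0.24), Prnp (-1.60 ± 0.39), Htra1 (-1.60 ± 0.23) and Fbln2 (-1.59 ± 0.25). Sulf1, which trims heparan sulphate, had 114, 161 and 41.5 CPM in Vwf-positive cells, against 402, 500 and 183 CPM in Gja5-positive cells. Of the artery list, Bmx (-1.31), Dll4 (-1.27), Efnb2 (-1.15), Hey1 (-1.15), Cxcl12 (-0.84) and Htra1 were lower. Of 17 immediate early genes, 11 were higher than in Gja5-positive cells as well, and none lower. Weibel-Palade genes were higher for 3 and lower for 1 of 18, and leukocyte adhesion genes higher for 1 and lower for 2 of 16. Matrix genes were higher for 2 and lower for 4 of 27, and antigen presentation genes higher for 1 and lower for none of 16. Clotting and fibrinolysis genes were higher for 5 and lower for 2 of 16. Fbln5 had 422, 450 and 166 CPM in Gja5-positive cells (-0.15 ± 0.16, edgeR adjusted p = 0.80).

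The Vwf-positive cells were not 1 uniform population. They were split by UMIs of vein genes (Slc6a2 or Nr2f2) and of the arterial gene Bmx, a split made after the values were seen, so what follows is a description without a test. In the late HER2-positive library, 12 of 55 cells held a UMI of the vein genes only, 12 of Bmx only, 1 of both and 30 of neither. In the early HER2-positive library the numbers were 66, 26, 2 and 69 of 163, and in the early HER2-negative library 237, 26, 7 and 159 of 429. UMIs of both kinds were in 1.82%, 1.23% and 1.63% of cells. Vein UMIs were in 13, 68 and 244 cells in all and Bmx UMIs in 13, 28 and 33. Whether the 2 kinds fell independently of each other across cells was not tested. The share with vein UMIs only was 21.8%, 40.5% and 55.2%, and that with Bmx only 21.8%, 16.0% and 6.06%, so the make-up of the Vwf-positive cells differed between libraries. The median was 4531.5, 3298 and 3056 UMIs for cells with neither, against 5000, 4165.5 and 3809 for cells with vein UMIs. For cells with Bmx only it was 6328, 4526.5 and 3234. Whether cells with neither were too shallow to show a UMI of either kind was not tested.

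Genes not used for this split went with it. Prss23 had 1790, 2159 and 2692 CPM in cells with a vein UMI, against 381, 197 and 317 CPM in cells with Bmx only. Lrg1 had 377, 806 and 610 CPM, against 49.2, 24.6 and 21.2 CPM. Nrp2 had 283, 168 and 213 CPM, against 0, 0 and 21.2 CPM, and Foxc1 had 108, 100.8 and 104 CPM, against 12.3, 24.6 and 0 CPM. These 4 were higher in the cells with a vein UMI in every library. The reverse held for Efnb2, with 215, 36.6 and 89.2 CPM in cells with a vein UMI, against 886, 745 and 857 CPM in cells with Bmx only. Sulf1 had 0, 9.16 and 4.15 CPM, against 234, 565 and 233 CPM, and Gja4 had 202, 91.6 and 153 CPM, against 615, 721 and 772 CPM. Fbln5 and Lyve1 were also lower in the cells with a vein UMI in each library, by a smaller ratio: Lyve1 had 1790, 1924 and 2527 CPM in cells with a vein UMI and 2707, 3243 and 2602 CPM in cells with Bmx only. Vcam1 was lower in the cells with a vein UMI in both HER2-positive libraries and higher in the early HER2-negative library, where it had 644 CPM, against 518 CPM with Bmx only.

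Cells with neither kind of UMI stood closer to the Bmx-only cells than to those with a vein UMI for Efnb2, at 935, 961 and 551 CPM, and for Hilpda, at 1350, 1319 and 1148 CPM. They had more of the capillary gene Kit than either of the other sets, at 198, 123 and 273 CPM. Sema3c, at 1008, 668 and 1449 CPM, did so in the late HER2-positive and early HER2-negative libraries, and in the early HER2-positive library the cells with a vein UMI had 702 CPM. Immediate early genes were higher in cells with a vein UMI: Egr1 had 188, 888 and 798 CPM there, against 73.8, 237 and 487 CPM with Bmx only and 132, 281 and 129 CPM with neither. Egr1, Fosb and Junb kept this order between the first and the other sets in each library.

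**Figure D4:**
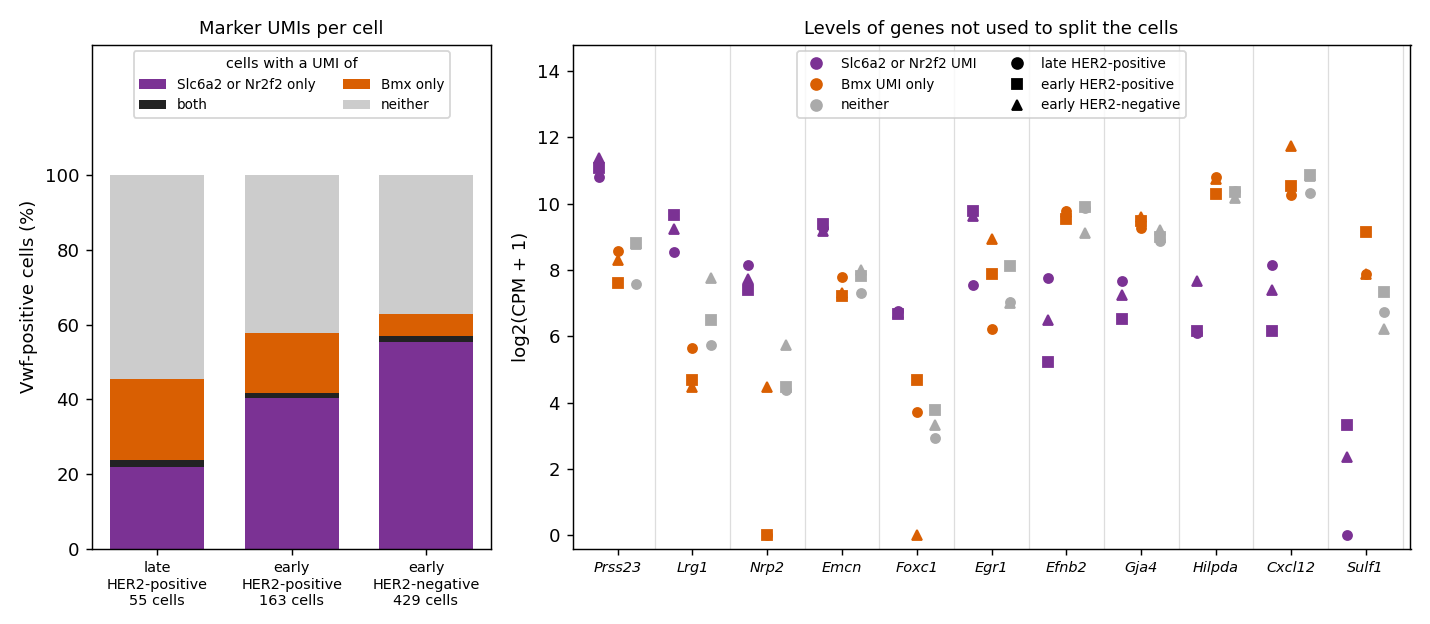
The bars give the percent of Vwf-positive cells of each library with a UMI of Slc6a2 or Nr2f2 only, of both kinds, of Bmx only or of neither, and the points give log2(CPM + 1) of genes not used for the split in the summed counts of each set. Prss23, Lrg1, Nrp2, Emcn and Foxc1 are highest in the cells with a vein UMI, and Efnb2, Gja4, Hilpda, Cxcl12 and Sulf1 are lowest there.

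Vwf-positive cells made up 12.2% of the endothelial gate in the late HER2-positive library (95% exact binomial interval 9.36% to 15.6%), 11.5% in the early HER2-positive library (9.92% to 13.3%) and 8.46% in the early HER2-negative library (7.71% to 9.26%). These are shares of sorted cells, and the intervals of the HER2-positive libraries overlap. With every cell thinned to 1000 UMIs before the gate, the share was 15.7% (12.4% to 19.4%) in the late HER2-positive library. It was 10.4% (8.82% to 12.1%) in the early HER2-positive library and 5.51% (4.90% to 6.18%) in the early HER2-negative library. No 2 of these intervals overlap, but they cover the counting of cells only. Thinning can also take the Gja5 UMIs from a cell, so cells outside the rule may enter the Vwf-positive set. With thinning the Vwf-positive cells rose from 55 to 69 in the late HER2-positive library. They fell from 163 to 143 in the early HER2-positive library and from 429 to 279 in the early HER2-negative library. How far this set the shares apart was not tested.

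Between libraries the differences are those of 1 library against another, with intervals for counting error only. In a sum over cells, fewer cells of a type and less RNA per cell cannot be told apart. Of 6352 genes with at least 20 counts in the pair, 692 (10.9%) were at least 1.5-fold higher in the late than in the early HER2-positive Vwf-positive cells, and 802 (12.6%) at least 1.5-fold lower. The 1494 genes are 23.5% of those compared. Of the 10 vein genes, 8 were among the lower ones and none among the higher, with a median log2 ratio of -0.91, against -0.01 over all genes. Without the 19 late and 14 early HER2-positive cells that held at least 2 UMIs of genes of other lung cells, a check chosen after seeing the data, 7 of the 10 were lower and none higher, with a median of -0.74. Prss23, at 628 CPM in late and 1221 CPM in early HER2-positive cells, is one of them. Within the 13 late and 68 early HER2-positive cells that held a vein UMI, Prss23 had 1790 against 2159 CPM. Slc6a2 had 1628 against 992 CPM there, but it helped choose these cells, and its late UMIs came from 8 cells. What sets the gap between the libraries was not tested. Of 7 general capillary genes, 4 were higher in the late library and none lower.

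**Figure D5:**
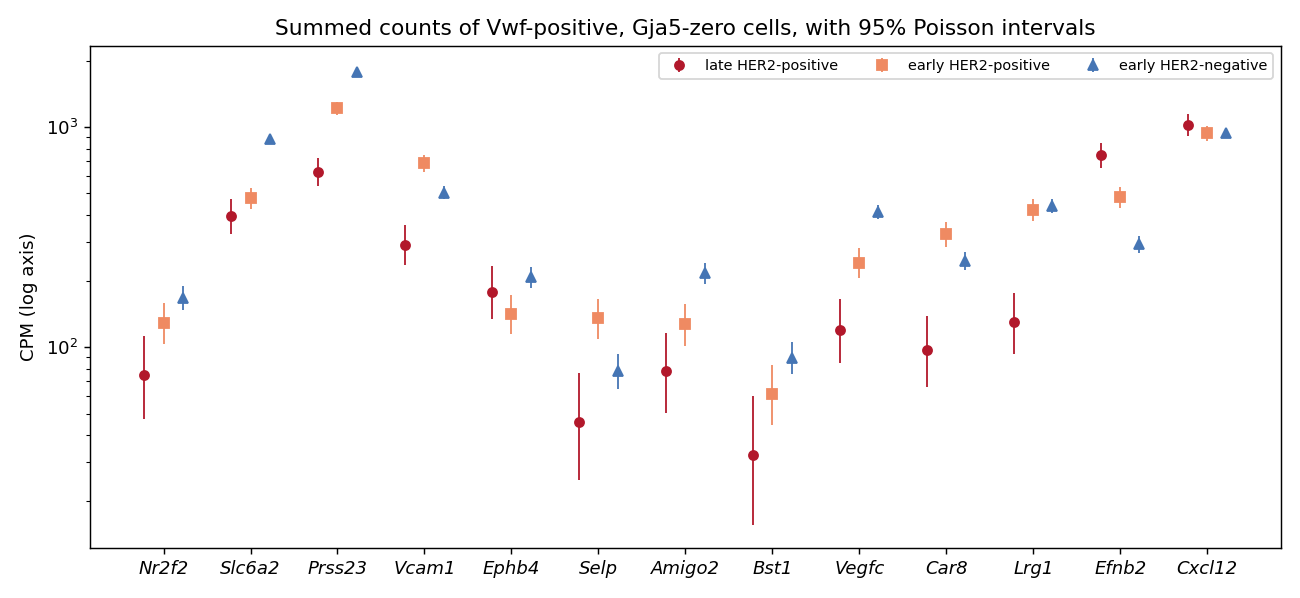
Points are CPM in the summed counts of the Vwf-positive cells of each library on a log axis, with 95% Poisson intervals. For Nr2f2, Prss23, Amigo2, Vegfc and Lrg1 the late HER2-positive library is the lowest, and for Efnb2 it is the highest, at 748 CPM.

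Sox18, a transcription factor of vessel development, had the second highest ratio of late over early HER2-positive among the named genes. It had 511 CPM in late and 49.7 CPM in early HER2-positive Vwf-positive cells, a ratio of 10.3 (7.06 to 15.4). The cells without Vwf showed it too, at 438 and 63.8 CPM, a ratio of 6.87. Acyp2 (12.8, 4.38 to 50.9), Rasgrp2 (3.48), Adamts9 (3.34), Snrpf (3.099), Rgs9 (2.97), Sparcl1 (2.87) and Tox2 (2.86) were the other leading ones. Acyp2 and Snrpf also stood higher in the late cells without Vwf, with ratios of 2.84 and 2.55, whereas the ratio of Rasgrp2 there was 0.996. Among the lowest ratios were Gas6 (0.109, 0.0127 to 0.418), Ctnnal1 (0.117), Egr1 (0.231, 0.162 to 0.320), Cpe (0.234), Fgl2 (0.247), Sdhaf1 (0.255), Bace2 (0.267) and Arfgap2 (0.273). Gas6, a ligand of TAM receptors, had 2 counts in the late and 41 in the early library. Of 17 immediate early genes, 9 were at least 1.5-fold lower in the late library and 1 higher, and the summed level of the list was 10913 and 14294 CPM in Vwf-positive cells and 7424 and 8946 CPM in the cells without Vwf.

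Between the early libraries, 850 of 8596 genes (9.89%) were at least 1.5-fold higher in HER2-positive than in HER2-negative Vwf-positive cells and 917 (10.7%) at least 1.5-fold lower, 20.6% in all. The highest ratios belonged to genes of other cells: Lyz2 (62.8 and 0.619 CPM), Lyz1, Sftpa1 (104 and 1.86 CPM) and Scgb1a1. In barcodes of 1 to 100 UMIs, Sftpa1 stood at 16728 CPM in the early HER2-positive and 1301 CPM in the early HER2-negative library, and its ratio in the cells without Vwf was 43.9. Lyz1 and Lyz2 are near-identical copies. Next came Map1b, at 164 and 19.2 CPM (8.52, 5.68 to 13.1), Stk32a (7.26), Fads3 (5.11) and the artery-side gene Fbln2 (4.58, 3.22 to 6.57). Map1b had a ratio of 6.27 in the cells without Vwf, and Fbln2 one of 0.928. The lowest ratios were those of Adamts9 (0.254), Pard6g (0.320), Hmcn1 (0.364), Atp5k (0.365), Slirp (0.373), B4galt1 (0.382), Ddit4 (0.386) and Irgm2 (0.390). Hmcn1, a matrix protein gene, had 277 and 762 CPM in Vwf-positive cells and 311 and 758 CPM in the cells without Vwf, and was lower in both populations. Of the general capillary genes 6 of 8, 8 of 17 immediate early genes and 6 of 15 antigen presentation genes were at least 1.5-fold lower in the HER2-positive cells, with none higher in any of the 3 lists. Cell division genes were at least 1.5-fold higher for 4 of 6, but 2 cells held at least 3 UMIs of such genes in the early HER2-positive library and 1 of them held 94 of the 107 UMIs.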

How the data were processed

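The authors deposited raw UMI counts per gene and barcode for 3 libraries, made with software version 3.1.0 per the file headers on the mm10 build per the submitters' processing notes; the aligner is not given in the sources used here. Each table lists 27998 genes. Barcodes were filtered and gated as described in the report, with no doublet caller. Counts were summed per library and population into 12 sums and fitted in edgeR 4.0.16 (quasi-likelihood test, TMM, filterByExpr) with population and library as terms, so the libraries, which differ in stage and sort, served as the replicates. The library term takes out differences that all populations of a library share. The p-values measure the spread that remains between libraries, pooled over all 12 sums. These sums include a population not compared here, the cells of the gate with at least 2 UMIs of Car4 and none of Gja5. The fit was checked on simulated data. CPM are counts over the summed UMIs of a population. Intervals between libraries are exact 95% intervals and cover counting error only. Gene coordinates are those of the GENCODE vM21 annotation (GRCm38), matched by Ensembl ID, and upstream sequences those of RefSeq (GRCm38.p6), matched by symbol.

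Named genes were those with the largest changes among called genes with at least 50 CPM in the higher population and the same direction in all 3 libraries, and members of the lists; 1 of them is not reported here. The members and lists were chosen with earlier results of these data known. Alternatives were DESeq2 1.42.0, other scaling, filters and thresholds, thinning to 1000 UMIs and leaving out each library. R 4.3.3, Python 3.11.15, numpy 2.4.6, scipy 1.17.1 and pandas 2.3.3 were used.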

Additional observations from a re-analysis of the deposited data

How the results depend on the processing

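The number of genes called against the cells without Vwf was 438 with no library block, that is without pairing populations by library, and 534 with each cell thinned to 1000 UMIs, in place of 1052. Leaving out 1 library gave 354 to 1132. Against Gja5-positive cells, 398 genes became 247 with DESeq2, 646 with no filter on low counts, 118 with no library block, 170 when thinned and 862 with only the Vwf-positive cells that held a Slc6a2 or Nr2f2 UMI, a set chosen after seeing the data. Leaving out 1 library gave 129 to 345. No named gene reversed. Of the refits of named genes, 428 kept their call and 8 lost it against the cells without Vwf, and 251 kept it and 16 lost it against Gja5-positive cells. The share of Vwf-positive cells was 15.7% when thinned and 16.7% with a threshold of 1 Vwf UMI in the late HER2-positive library, 14.9% with 1 UMI in the early HER2-positive library, and 5.51% when thinned, 12.3% with 1 UMI and 7.08% with 3 UMIs in the early HER2-negative library. Genes at least 1.5-fold apart between late and early HER2-positive cells numbered 509 with at least 50 counts in the pair and 623 when thinned, and those between the early libraries 907 with at least 50 counts. No paired analysis was possible between libraries because each group has 1. The cause of these shifts was not tested.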
